A study of Arabidopsis thaliana with 6 samples.

Results

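The 40 genes described here are the glutathione S-transferases of the phi and tau classes in Arabidopsis thaliana, taken from a fixed list of locus identifiers. They comprise 13 phi genes (GSTF2 to GSTF14) and 27 tau genes (GSTU1 to GSTU14 and GSTU16 to GSTU28), out of 37051 genes in the deposited count table. By locus position, 27 of the 40 lie in 8 tandem groups, in which related genes follow each other along the chromosome. The identifiers were listed by family and not by a measured value, but the family was chosen with earlier results of these data known. GSTU15 (AT1G59670), also a tau gene, is not on the list and held 0 counts in all 6 libraries.

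The study compared whole shoots of the los2-5 mutant with whole shoots of the wild type Col-0, by 3' RNA-seq, which counts tags near the 3' ends of transcripts. LOS2 (AT2G36530) encodes an enolase, an enzyme of glycolysis, and the title of the series places the question in plant immunity. There were 3 biological replicates of los2-5 and 3 of Col-0. Each was a pool of 3 plants, taken 2 weeks after germination, and the replicates of a genotype came from different pots. All plants grew on soil at 22 °C under continuous illumination (100 µmol m-2 s-1), and the labels name no treatment. The sources used here do not give the lesion of los2-5, and the labels name a single mutant allele. LOS2 transcript was measured at 120, 115 and 123 CPM (counts scaled to a common library size) in los2-5, against 110, 124 and 106 CPM in Col-0. A 3' tag that lies outside a lesion checks nothing about the genotype.

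Glutathione S-transferases join the tripeptide glutathione to reactive, electrophilic molecules, which are then moved into the vacuole by transporters of the ABCC family and broken down. The phi and tau classes are the large plant classes of the family, and are known for detoxifying herbicides, for binding hormones and secondary metabolites, and for steps in the making of defence compounds such as camalexin. Many of their genes respond to salicylic acid, oxidative stress and xenobiotics, in part through TGA transcription factors that bind as-1 type promoter elements.

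Library totals were 4454870, 4400433 and 4537653 counts in los2-5 replicates 1, 2 and 3, and 3563033, 4291282 and 4598645 counts in Col-0 replicates 1, 2 and 3. Of 13952 genes that passed the filter on low counts, the edgeR quasi-likelihood test called 9.92% higher and 10.6% lower in los2-5 at an adjusted p of at most 0.05. All 5 shoot markers were detected in the 6 libraries and 2 of them, the photosynthesis genes RBCS1A (-0.76 ± 0.12) and CA1 (-0.58 ± 0.12), fell in log2 fold change by edgeR. Their part in the values of the transferase genes was not tested. Of 14 root markers 8 were at 0 in every library, and their summed level was 48.4 to 69.6 CPM in los2-5, against 54.6 to 67.6 CPM in Col-0, nearly all of it from PYK10. The 6 flower markers summed to 0.868 to 2.81 CPM in los2-5, against 1.72 to 4.43 CPM in Col-0, and 3 of 4 seed markers were at 0 throughout. In RNA of whole shoots, fewer cells of a type and less RNA per cell cannot be told apart.

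Reads of close copies can be divided arbitrarily, so the members were compared in sequence first. In the reference proteins, 2 pairs of members shared at least 90% of their residues. GSTF2 and GSTF3, on chromosomes 4 and 2, were 92.5% identical in protein, and GSTF6 and GSTF7, neighbours on chromosome 1, were 93.3% identical. The next-door genes GSTF9 and GSTF10 on chromosome 2 were 80.0% identical. Tau proteins reached 81.3% identity at most, with a median of 38.1% over 351 pairs, against 38.8% over 78 phi pairs. The last 90 bases of each coding sequence are shown for these 3 phi pairs, to show how far the copies differ there. A tag near the 3' end of a transcript may lie beyond the stop codon. These bases therefore do not show how well tags tell the copies apart. Capitals mark the bases that differ within a pair (RefSeq, TAIR10.1, coding strand, 5′ to 3′).
GSTF2: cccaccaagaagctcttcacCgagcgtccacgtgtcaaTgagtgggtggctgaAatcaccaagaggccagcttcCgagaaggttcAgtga
GSTF3: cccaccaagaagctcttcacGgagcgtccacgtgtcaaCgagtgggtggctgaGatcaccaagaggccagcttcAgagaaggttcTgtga
GSTF6: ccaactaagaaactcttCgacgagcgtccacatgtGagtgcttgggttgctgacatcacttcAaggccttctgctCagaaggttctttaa
GSTF7: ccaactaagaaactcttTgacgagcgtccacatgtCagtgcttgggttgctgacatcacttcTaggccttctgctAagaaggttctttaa
GSTF9: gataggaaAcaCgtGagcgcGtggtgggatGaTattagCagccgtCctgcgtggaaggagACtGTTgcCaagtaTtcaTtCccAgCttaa
GSTF10: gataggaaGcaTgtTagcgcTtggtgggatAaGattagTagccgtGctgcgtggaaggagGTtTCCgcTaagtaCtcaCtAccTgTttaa
GSTF2 and GSTF3 differ at 5 of these 90 bases, GSTF6 and GSTF7 at 4, and GSTF9 and GSTF10 at 19. In the last 300 bases of the annotated transcripts the longest identical stretch was 37 bases for GSTF2 and GSTF3, 27 bases for GSTF6 and GSTF7, and 8 bases for GSTF9 and GSTF10. The sources used here do not say how reads that fit several genes were treated, so the values of single genes in the first 2 pairs are uncertain, and their sums are given as well.

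The phi genes GSTF2, GSTF6, GSTF7, GSTF8, GSTF9 and GSTF10 rose in los2-5, as did the tau genes GSTU8 and GSTU24, while the tau gene GSTU13 fell. The tau genes with the highest counts, GSTU19, GSTU20, GSTU5 and GSTU17, were not called. Of the 40 members 22 passed the filter on low counts, 9 of them phi and 13 tau. By the edgeR test, fitted and adjusted over all 13952 genes, 8 of the 22 rose in los2-5, 1 fell and 13 were not called, against a background of 9.92% higher and 10.6% lower. In the phi class 6 of 9 rose and 0 fell. At an unadjusted p under 0.05, edgeR had 1 phi gene lower. By adjusted p the DESeq2 test called 4 phi genes up and 0 down, and that of limma-voom 6 up and 0 down. In the tau class 2 of 13 rose and 1 fell, while DESeq2 called 1 and 1 and limma-voom 2 and 1. GSTU8, counted as higher by each test, passed the filter through los2-5 alone. The median log2 fold change of the members tested was 0.29, with 0.40 for phi and 0.22 for tau, beside 0.02 over all genes tested. With scaling by library size and no further factor, the median of all genes moved to 0.14 and that of the members tested to 0.41. Without los2-5 replicate 3 the number of members called higher was 4, and without Col-0 replicate 2 or replicate 3 it was 5. For 8 members all los2-5 values lay above all Col-0 values and for 1 all lay below, against 18.7% and 18.6% of all genes tested.

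**Figure D1:**
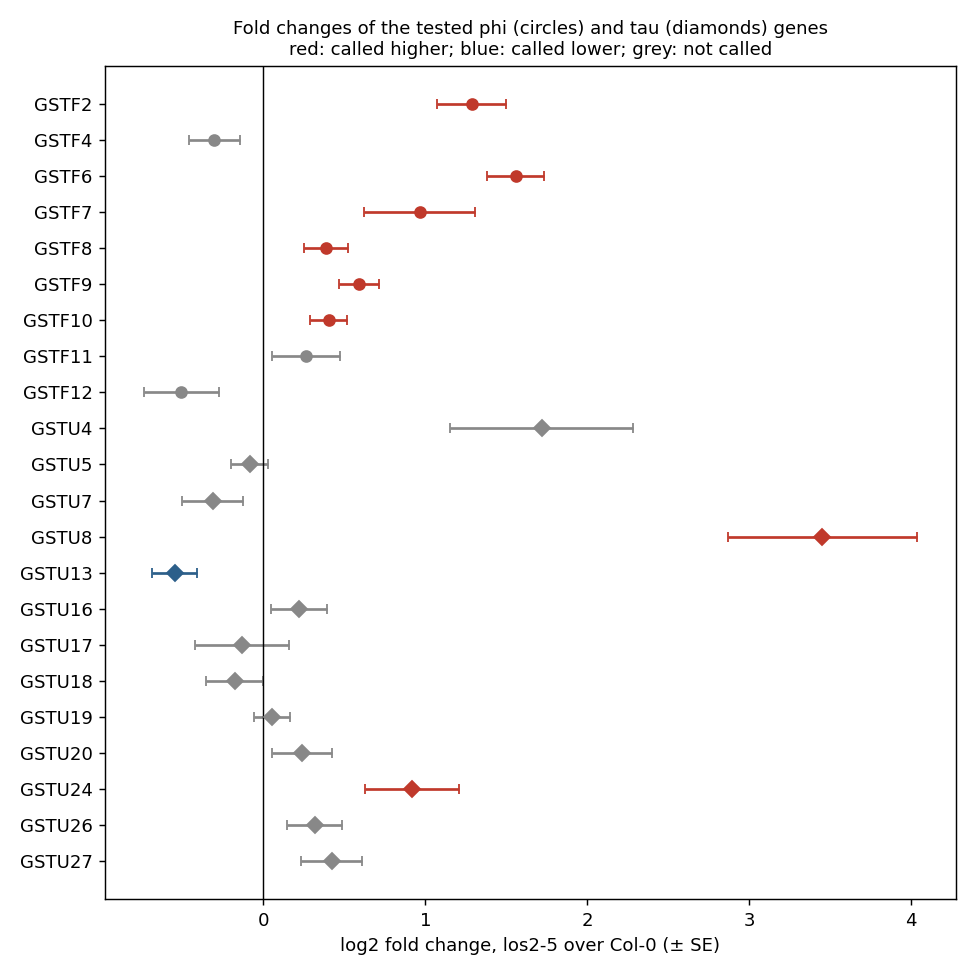
Log2 fold changes of los2-5 over Col-0 for the 22 phi and tau members tested, with bars of 1 standard error from the edgeR fit (3 libraries of each genotype). Phi genes are circles and tau genes diamonds. Coloured points passed an adjusted p of at most 0.05 and lie at 0.39 to 1.56 for 6 phi genes, at 0.92 and 3.45 for GSTU24 and GSTU8, and at -0.55 for GSTU13.

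GSTF2 (AT4G02520), a transferase that also binds auxin and camalexin, was measured at 1393, 1231 and 1910 CPM in los2-5, against 814, 571 and 476 CPM in Col-0. Every los2-5 library was above every Col-0 library, and within Col-0 replicate 1 was the highest. GSTF2 rose by a log2 fold change of 1.29 ± 0.21 (SE), with an adjusted p of 0.0022 by edgeR. The near copy GSTF3 (AT2G02930) held 7 counts over the los2-5 libraries and 5 over the Col-0 libraries, too few for the test. The ratio of GSTF3 was 1.20, with an exact 95% interval of 0.327 to 4.78 that covers counting error alone. Summed, the pair stood at 1393, 1231 and 1911 CPM in los2-5, against 814, 572 and 477 CPM in Col-0, so the sum differed from GSTF2 alone by at most 1 CPM. GSTF2 also lies opposite TOC159, which encodes a receptor for protein import into chloroplasts, with 85.3% of its gene length shared on the other strand. TOC159 had 63.0, 82.9 and 70.8 CPM in los2-5, against 73.5, 66.1 and 64.9 CPM in Col-0, and was not called (0.09 ± 0.14, adjusted p = 0.71 by edgeR). Without strand information in the sources, reads of such partners cannot be told apart.

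GSTF4, GSTF5, GSTF6 and GSTF7 form an array on chromosome 1. GSTF6 (AT1G02930), which takes part in camalexin synthesis by joining glutathione to an indole intermediate, stood at 123, 134 and 166 CPM in los2-5, against 64.3, 40.8 and 39.4 CPM in Col-0. The genotypes did not overlap. Its log2 fold change of 1.56 ± 0.17 (adjusted p = 5.9e-06, edgeR) was called in all 13 alternative analyses. GSTF7 (AT1G02920), its near copy, stood at 5.18, 4.30 and 4.99 CPM in los2-5, against 3.84, 1.72 and 2.04 CPM in Col-0. All los2-5 values were above those of Col-0, and GSTF7 rose by 0.96 ± 0.34 with an adjusted p of 0.049 by edgeR, which lay between 0.024 and 0.19 over the alternatives and missed the threshold in 8 of 13. The sum of GSTF6 and GSTF7 was 128, 138 and 171 CPM in los2-5, against 68.2, 42.5 and 41.4 CPM in Col-0. GSTF4 (AT1G02950), at the other end of the array, stood at 32.8, 31.4 and 34.3 CPM in los2-5, against 31.9, 45.7 and 43.4 CPM in Col-0. Here the genotypes overlapped through Col-0 replicate 1, and the value of -0.30 ± 0.16 was not called (adjusted p = 0.18, edgeR). GSTF5 held 0 counts in los2-5 and 3 in Col-0.

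Neighbours of an array were set against each other directly. For each pair of consecutive tested genes of a chromosome the difference of log2 levels was fitted with limma, and 2802 of 13947 such pairs in the genome were called (20.1%). Within the tandem groups 8 pairs of members could be tested, of which 2 were called. The level of GSTF6 divided by that of GSTF4 was 3.74, 4.27 and 4.84 in los2-5, against 2.02, 0.893 and 0.906 in Col-0. The ratio was higher in every los2-5 library than in any Col-0 library, and the log2 fold changes of the pair differed by 1.84 ± 0.25 (adjusted p = 1.3e-05, limma), a call that held in all 10 alternatives of the pair test. The difference between GSTF7 and GSTF6 was -0.68 ± 0.35 and was not called (adjusted p = 0.17, limma), which does not show that they responded alike.

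GSTF9 (AT2G30860) and GSTF10 (AT2G30870) are neighbours on chromosome 2, both with high counts in all 6 libraries. GSTF9 stood at 1509, 1887 and 1905 CPM in los2-5, against 1330, 1039 and 1149 CPM in Col-0. The genotypes did not overlap, and GSTF9 rose by 0.59 ± 0.12 (adjusted p = 0.0015, edgeR). GSTF10, also known as the dehydration-responsive gene ERD13, stood at 1718, 1443 and 1779 CPM in los2-5, against 1224, 1281 and 1227 CPM in Col-0. All los2-5 values lay above Col-0, whose libraries were close together. GSTF10 rose by 0.40 ± 0.11 with an adjusted p of 0.014 by edgeR. That call was lost without los2-5 replicate 3 (adjusted p = 0.055), Col-0 replicate 1 (0.058) or Col-0 replicate 3 (0.092). The change of GSTF9 exceeded that of GSTF10 by 0.19 ± 0.14, which was not called (adjusted p = 0.35, limma).

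GSTF8 (AT2G47730), long used as a marker of early stress and defence responses, stood at 333, 377 and 434 CPM in los2-5, against 354, 272 and 251 CPM in Col-0. Col-0 replicate 1 lay above los2-5 replicate 1, so the genotypes overlapped. GSTF8 rose by 0.39 ± 0.14 with an adjusted p of 0.048 by edgeR, and this call was lost in 6 of 13 alternatives (range 0.0098 to 0.29). GSTF11, whose expression is tied to aliphatic glucosinolate synthesis, and GSTF12 (TT19), which is needed for anthocyanin to reach the vacuole, were not called. Their log2 fold changes were 0.26 ± 0.21 and -0.51 ± 0.23. GSTF12 lay at 10.9 to 21.7 CPM in los2-5, against 18.8 to 26.0 CPM in Col-0, and without los2-5 replicate 2, the highest of its genotype, its value was -0.88 with an adjusted p of 0.0073 by edgeR. GSTF12 shares 108 bases on the opposite strand with PSY, a carotenoid synthesis gene that had a value of -0.57 ± 0.26. GSTF14 held 2 counts in each genotype, and GSTF13 held 0 counts in all 6 libraries.

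**Figure D2:**
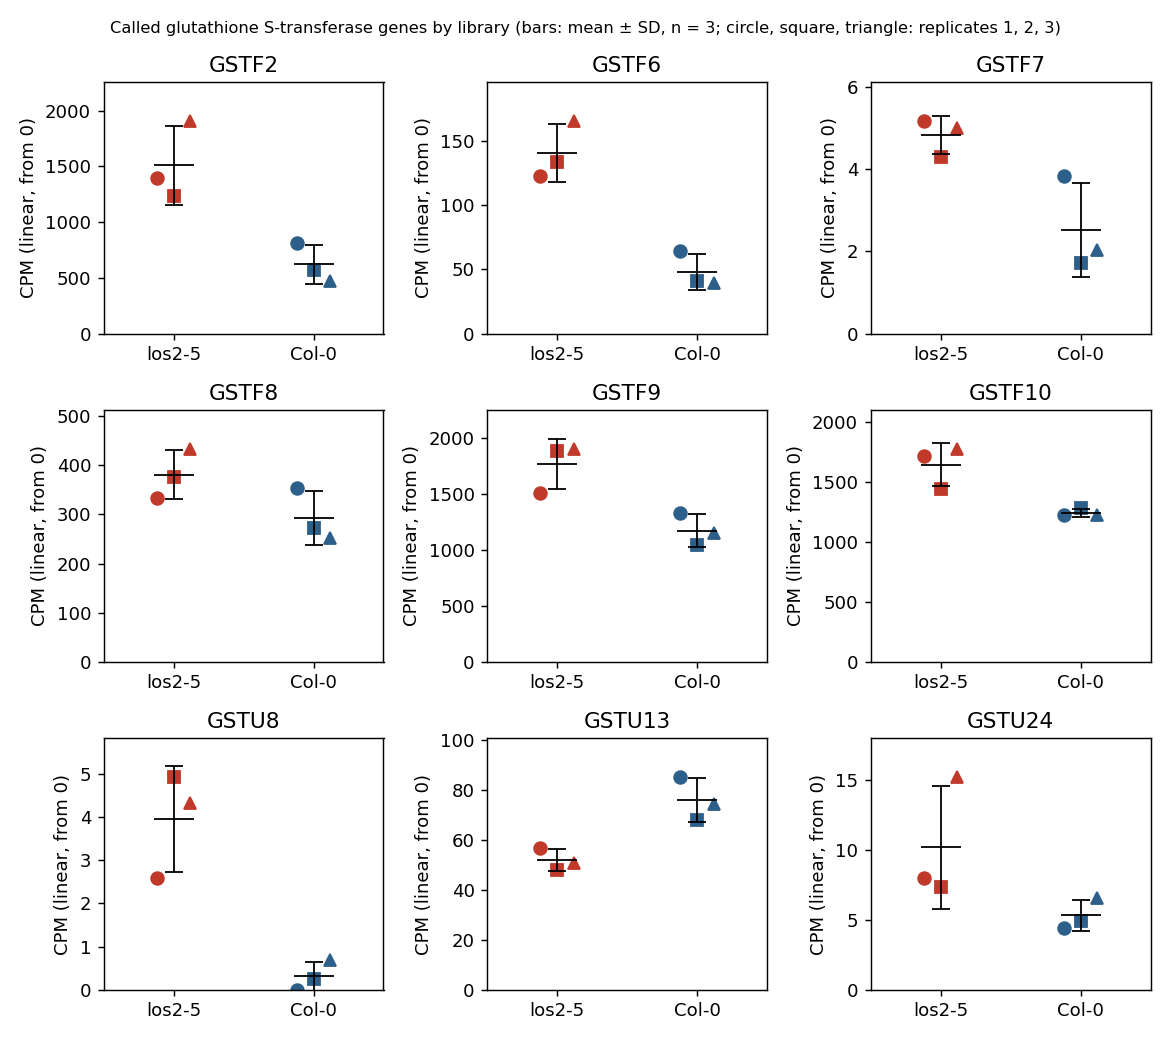
Level in CPM of the 9 members called by edgeR, 1 panel per gene with its own axis from 0, los2-5 on the left and Col-0 on the right. Points are libraries and lines are the mean of 3 with bars of 1 SD: the genotypes overlap for GSTF8 alone, and GSTU13 is the panel with los2-5 below Col-0.

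Among tau genes, GSTU8 (AT3G09270) showed the largest fold of any member tested. Its counts summed to 55 over the los2-5 libraries and 4 over the Col-0 libraries, and its levels were 2.59, 4.94 and 4.34 CPM in los2-5, against 0, 0.246 and 0.678 CPM in Col-0. The genotypes did not overlap, although no Col-0 library reached the filter level, so that GSTU8 entered the test through los2-5 alone. GSTU8 rose by a fitted log2 fold change of 3.45 ± 0.58 (adjusted p = 2.0e-04, edgeR), with 2.99 to 4.60 when single libraries were left out. GSTU24 (AT1G17170), known for conjugating the explosive TNT in plants exposed to it, stood at 7.99, 7.31 and 15.2 CPM in los2-5, against 4.43, 4.92 and 6.56 CPM in Col-0. All los2-5 values lay above Col-0, with replicate 3 far above the other two. GSTU24 rose by 0.92 ± 0.29 (adjusted p = 0.029, edgeR), and the value was 0.51 (adjusted p = 0.24) without los2-5 replicate 3. The call was also lost without Col-0 replicate 1 (adjusted p = 0.11) or replicate 2 (0.094), with DESeq2 (0.071) and with limma-voom (0.057).

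GSTU13 (AT1G27130), which acts in the indole glucosinolate pathway of pathogen-triggered defence, was the 1 member that fell. It stood at 56.6, 47.9 and 50.8 CPM in los2-5, against 85.3, 67.8 and 74.4 CPM in Col-0. Every los2-5 value was below every Col-0 value. The log2 fold change was -0.55 ± 0.14 (adjusted p = 0.0067, edgeR), and the call held in all 13 alternatives. Its tandem partner GSTU14 had 1 count in los2-5 and 0 in Col-0.

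The remaining tau genes that averaged at least 20 CPM were not called, and their genotypes overlapped. GSTU19 (AT1G78380), a broad detoxifying enzyme induced by herbicide safeners, stood at 1322, 1326 and 1498 CPM in los2-5, against 1383, 1265 and 1341 CPM in Col-0, a log2 fold change of 0.06 ± 0.11. Its neighbour GSTU20 (AT1G78370), whose expression is tied to aliphatic glucosinolate synthesis, stood at 305, 576 and 385 CPM in los2-5, against 374, 327 and 371 CPM in Col-0 (0.24 ± 0.19). The spread of GSTU20 came mainly from los2-5 replicate 2, which lay above all the other libraries. Without los2-5 replicate 1, the lowest, the value of GSTU20 was 0.42 with an adjusted p of 0.0499 by edgeR, just past the threshold. GSTU5 (AT2G29450) stood at 340, 308 and 363 CPM in los2-5, against 350, 368 and 354 CPM in Col-0 (-0.08 ± 0.11). GSTU17 (AT1G10370, ERD9), a gene linked to drought and light responses, stood at 224, 263 and 181 CPM in los2-5, against 184, 360 and 188 CPM in Col-0 (-0.13 ± 0.29). Col-0 replicate 2 stood apart for GSTU17, and the value was 0.26 without it. The 3' end of GSTU17 shares 71 bases on the same strand with the start of its neighbour GSTU18. Reads of that stretch cannot be told apart by strand. GSTU16 (AT1G59700) stood at 28.7, 41.3 and 37.6 CPM in los2-5, against 37.5, 25.8 and 29.4 CPM in Col-0 (0.22 ± 0.17). By edgeR the adjusted p of these 5 genes ran from 0.39 to 0.79, and the sign of GSTU5, GSTU17, GSTU19 and GSTU20 turned in 1 alternative each, so that no direction is given for them.

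The other tau members tested were low. GSTU26 lay at 20.1 to 23.4 CPM in los2-5, against 17.0 to 17.4 CPM in Col-0, without overlap, yet it was not called (0.32 ± 0.17, adjusted p = 0.20 by edgeR). GSTU27 (0.42 ± 0.19), GSTU7 (-0.31 ± 0.19) and GSTU18 (-0.18 ± 0.17) were not called either, and GSTU27 passed with library size alone (adjusted p = 0.043). GSTU4, named here after its values were seen, missed the threshold narrowly. It stood at 3.45, 7.09 and 10.6 CPM in los2-5, against 4.43, 0.492 and 1.81 CPM in Col-0, and overlapped through Col-0 replicate 1. Its log2 fold change of 1.72 ± 0.57 had an adjusted p of 0.055 by edgeR. Over 13 alternatives its adjusted p ran from 1.8e-05 without a filter to 0.20 with DESeq2, and it was called in 5 of them. The fit without a filter gave GSTU4 a similar value (1.72) with a smaller standard error (0.34). The log2 fold change lay between 1.23 (without Col-0 replicate 2) and 2.55 (without Col-0 replicate 1) when single libraries were left out, with an adjusted p of 0.0058 to 0.18 by edgeR.

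GSTU4 and GSTU5 are consecutive tested genes of the array of 7 tau members on chromosome 2, and gave the other pair call. The level of GSTU5 divided by that of GSTU4 was 98.5, 43.4 and 34.1 in los2-5, against 79.1, 749 and 196 in Col-0. The genotypes overlapped, with Col-0 replicate 1 among the los2-5 values. The log2 fold change of GSTU5 was lower than that of GSTU4 by 1.74 ± 0.49 (adjusted p = 0.014, limma). The call was lost without los2-5 replicate 2 (adjusted p = 0.0504), los2-5 replicate 3 (0.077) or Col-0 replicate 2 (0.069). The other 4 tau pairs tested, GSTU7 with GSTU5, GSTU18 with GSTU17, GSTU20 with GSTU19 and GSTU24 with GSTU26, were not called, at an adjusted p of 0.26 to 0.83 by limma.

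**Figure D3:**
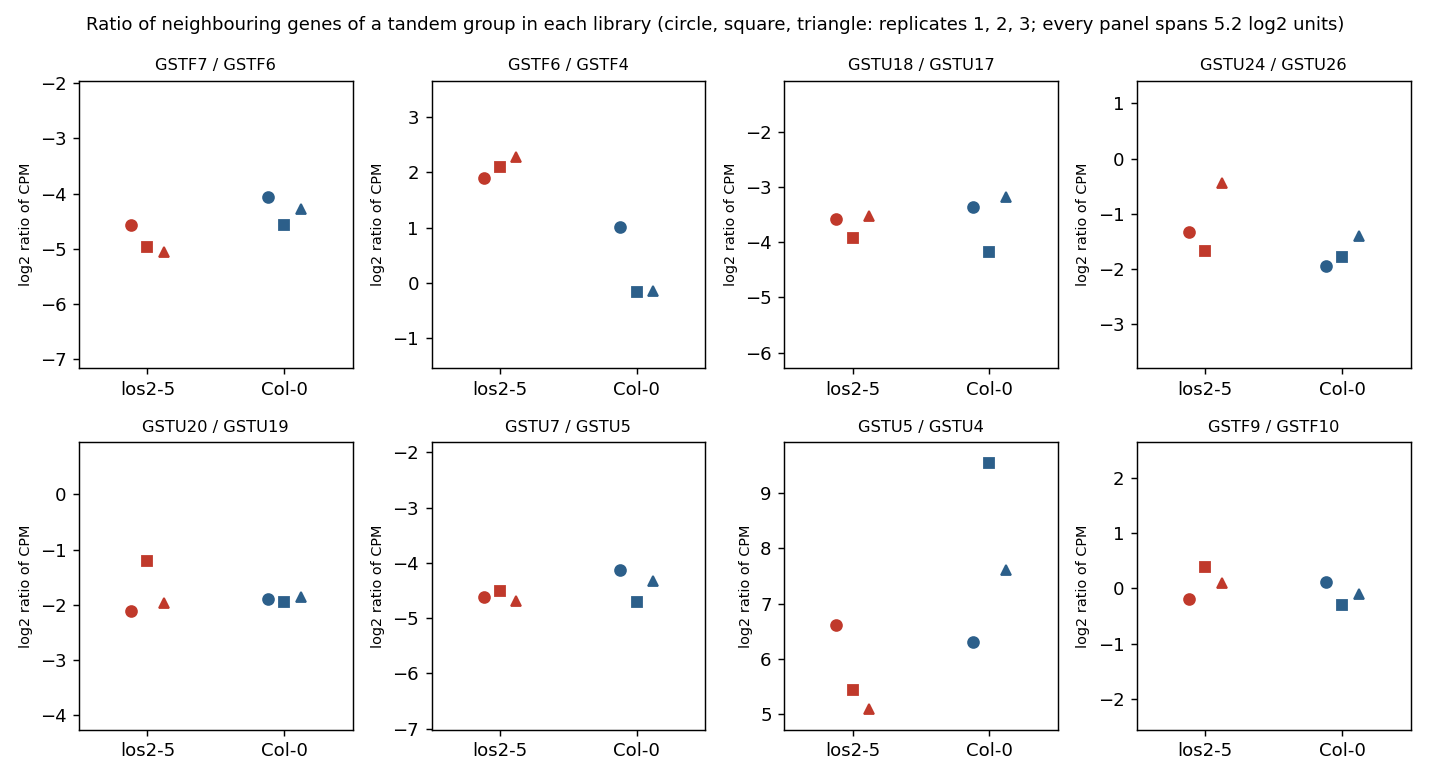
Log2 ratio of the CPM of neighbouring members in each library for the 8 tested pairs, los2-5 on the left and Col-0 on the right of each panel, with circle, square and triangle for replicates 1, 2 and 3 and an equal span on every axis. The GSTF6 to GSTF4 ratio is higher in all 3 los2-5 libraries (3.74 to 4.84 before the log) than in Col-0 (0.893 to 2.02), and the other 7 pairs overlap.

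The calls were also counted by tandem group, where 9.92% of all 13952 genes tested were called higher and 10.6% lower by edgeR. In the GSTF4 to GSTF7 array 2 of 3 tested genes rose, and in the GSTF9 and GSTF10 pair both did. In the GSTU24 to GSTU26 array 1 of 2 rose, and in the GSTU13 and GSTU14 pair the 1 gene tested fell. Of the 3 genes tested in the GSTU1 to GSTU7 array, the 2 in the GSTU17 and GSTU18 pair and the 2 in the GSTU19 to GSTU23 array, 0 were called by edgeR. At an unadjusted p under 0.05 there was 1 in these groups, in the GSTU1 to GSTU7 array, and limma-voom called 1 there, while DESeq2 called 0 in all 3 groups. Of all 13952 genes tested, 2345 were higher and 2354 lower at an unadjusted p under 0.05 by edgeR. Outside the groups, 2 of 4 tested phi genes and 1 of 3 tested tau genes rose, the latter being GSTU8, which passed the filter through los2-5 alone.

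The 18 members that did not pass the filter, 4 phi and 14 tau, held at most 58 counts each over all 6 libraries. GSTF13, GSTU2 and GSTU21 held 0 counts in every library. GSTU23, GSTU10 and GSTU9 were chosen to be given by library after their values were seen. GSTU23 had 7, 17 and 19 counts in los2-5, against 3, 5 and 7 in Col-0, a ratio of 2.45 with an exact 95% interval of 1.34 to 4.75. Some alternatives could test it, and edgeR called GSTU23 higher without a filter (adjusted p = 0.039) and without los2-5 replicate 1 (0.014). It was not called without Col-0 replicate 1, 2 or 3 (0.16, 0.12 and 0.096, edgeR). Where a library was left out, GSTU23 entered the test through los2-5 alone, since its Col-0 counts lay under the filter level. GSTU10 had 3, 3 and 13 counts in los2-5, against 0, 1 and 4 in Col-0, a ratio of 3.25 (1.17 to 11.1). In both genotypes replicate 3 held most of its counts: the ratio was 1.54 (0.390 to 6.36) without los2-5 replicate 3 and 10.2 (1.62 to 424) without Col-0 replicate 3. Without a filter GSTU10 was not called (adjusted p = 0.12, edgeR). GSTU9 had 0, 4 and 6 counts in los2-5 and 0 in each Col-0 library, at least 2.85-fold higher when the Col-0 sum is set to a floor of 3 counts, and without a filter edgeR called it higher (adjusted p = 0.026). The intervals and the floor cover counting error alone and say nothing of the spread between pots. GSTU6 (27 counts in los2-5 and 23 in Col-0), GSTU3 (9 and 7, all in replicate 3 of each genotype), GSTU1 (5 and 10) and GSTU25 (3 and 5) had ratios whose intervals included equality. GSTU11, GSTU12 and GSTU28 had 1 count in los2-5 and 0 in Col-0, and GSTU22 had 2 and 0. For the genes with ratios that included equality or with so few counts, a difference was not detectable at this depth.

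Levels were also summed over the members of each class. The 13 phi genes summed to 5137, 5141 and 6257 CPM in los2-5, against 3859, 3280 and 3218 CPM in Col-0, with means of 5512 ± 645 and 3452 ± 354 CPM (SD, n = 3 each) and a ratio of 1.60. All los2-5 sums lay above all Col-0 sums. The 27 tau genes summed to 2370, 2662 and 2624 CPM in los2-5, against 2498, 2487 and 2443 CPM in Col-0, with means of 2552 ± 159 and 2476 ± 29.3 CPM and a ratio of 1.03. The tau sums overlapped. Phi transcript divided by tau transcript was 2.17, 1.93 and 2.39 in los2-5, against 1.55, 1.32 and 1.32 in Col-0. These sums carry no test, since the members were not drawn independently of earlier results.

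Taken over both classes the sum was 8063 ± 723 CPM in los2-5 and 5928 ± 375 CPM in Col-0, or 0.781%, 0.825% and 0.902% of all counts in the los2-5 libraries, against 0.605%, 0.547% and 0.544% in the Col-0 libraries. Of the difference of 2134 CPM between the means, 41.7% was GSTF2, 27.8% GSTF9 and 18.8% GSTF10, so that these 3 phi genes made up 88.4% of it. GSTU8, with the largest fold, added 3.65 CPM. Among the 6 phi genes that rose, los2-5 replicate 3 was the highest library of its genotype for 5, and Col-0 replicate 1 was the highest of its genotype for 5. PR1, BGL2 and PR5 are markers of salicylic acid signalling and were chosen after their values were seen. PR1 stood at 340, 276 and 588 CPM in los2-5, against 19.5, 23.8 and 4.52 CPM in Col-0. BGL2 stood at 294, 295 and 479 CPM in los2-5, against 54.6, 39.3 and 20.1 CPM in Col-0. PR5 stood at 147, 138 and 221 CPM in los2-5, against 30.7, 29.2 and 15.6 CPM in Col-0. For all 3 markers los2-5 replicate 3 was the highest library, and within Col-0 replicate 1 was the highest for BGL2 and PR5 and replicate 2 for PR1. Whether this order bears on the phi genes was not tested.

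**Figure D4:**
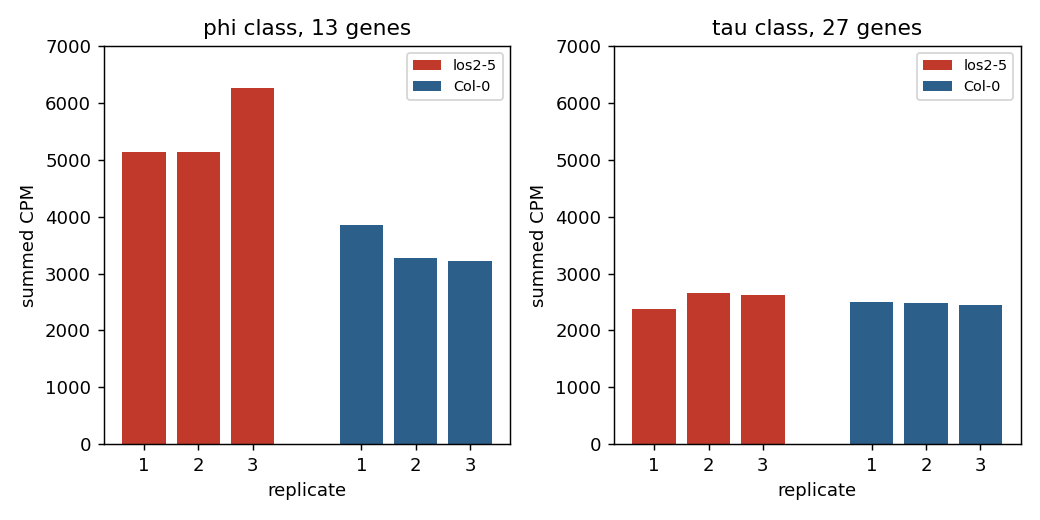
Summed level in CPM of the 13 phi members (left panel) and the 27 tau members (right panel), 1 bar per library from 0, los2-5 on the left and Col-0 on the right of each panel. The phi sums are 5137 to 6257 CPM in los2-5 and 3218 to 3859 CPM in Col-0 without overlap, while the tau sums of 2370 to 2662 and 2443 to 2498 CPM overlap.

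Promoters were read over the 500 bases before each annotated gene start, on both strands, for letters that the member list did not use. The as-1 core TGACG was present in 20 of the 40 members (50.0%), in 5 of 13 phi and 15 of 27 tau genes, against 31.8% of all 37051 genes and 32.9% of genes tested. The letters TTGAC, the core of the W box bound by WRKY factors, were present in 33 members (82.5%), in 12 of 13 phi and 21 of 27 tau genes, against 66.6% of all genes. The G box CACGTG was present in 6 of the 40 members, against 8.2% of all genes. TGACG and TTGAC overlap where the letters read TTGACG. Of the 8 members that rose, 8 held TTGAC and 4 held TGACG, and of the 13 not called 10 and 6 did. GSTU13, which fell, held none of these 3 sequences in its window. These are counts of letters, with no test, and a match is not a binding site.

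In a list of 18 genes of glutathione synthesis, recycling, breakdown and conjugate transport, the test covered 17, of which 4 rose and 2 fell, with 11 not called and a median log2 fold change of 0.16. Over all genes tested, 9.92% were called higher and 10.6% lower. ABCC1 and ABCC3, vacuolar transporters of glutathione conjugates, rose by 0.77 ± 0.15 and 1.20 ± 0.29. ABCC1 stood at 42.7, 44.0 and 46.5 CPM in los2-5, against 26.0, 25.8 and 26.2 CPM in Col-0. AT5G26220, a gamma-glutamyl cyclotransferase that degrades glutathione in the cytosol, rose by 1.68 ± 0.35, and OXP1, the 5-oxoprolinase of the next step, rose by 0.56 ± 0.14. GSH1, which catalyses the first step of glutathione synthesis, stood at 30.4, 28.4 and 21.5 CPM in los2-5, against 48.7, 35.4 and 46.8 CPM in Col-0. The genotypes did not overlap, and GSH1 fell with a log2 fold change of -0.70 ± 0.17. AT4G31290, another cyclotransferase, fell with a value of -0.51 ± 0.15. By edgeR the adjusted p of these 6 genes ran from 6.1e-04 to 0.016.

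Of 17 further genes, which are those of the zeta, theta, lambda and dehydroascorbate reductase classes, other relatives and GSTU15, 11 were tested, 0 rose and 1 fell by edgeR, with a median of 0.07. At an unadjusted p under 0.05 there was 1 higher and 1 lower, and both DESeq2 and limma-voom called DHAR3 alone, with 0 higher. The gene that fell was DHAR3, the plastid dehydroascorbate reductase of the ascorbate cycle, at -0.37 ± 0.12 (adjusted p = 0.030, edgeR). Of 21 other detoxification genes tied to as-1 elements and TGA factors, 12 were tested, 3 rose and 0 fell, with a median of 0.37. Beside both lists stand the 9.92% of all genes tested that edgeR called higher and the 10.6% lower. There was also 0 lower at an unadjusted p under 0.05, while the DESeq2 calls were 1 up and 0 down and those of limma-voom 2 up and 0 down. Those that rose were the cytochrome P450 gene CYP81D8 (1.27 ± 0.33), the glucosyltransferase gene UGT73B5 (1.31 ± 0.43) and OBF5, which encodes the factor TGA5 (0.76 ± 0.26). UGT73B5 stood at 2.4, 3.7 and 3.5 CPM in los2-5, against 0.89, 2.0 and 0.90 CPM in Col-0. No Col-0 library reached the filter level, so UGT73B5 entered the test through los2-5 alone, where it is high. These lists were chosen with earlier results of these data known and carry no test as lists.

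**Figure D5:**
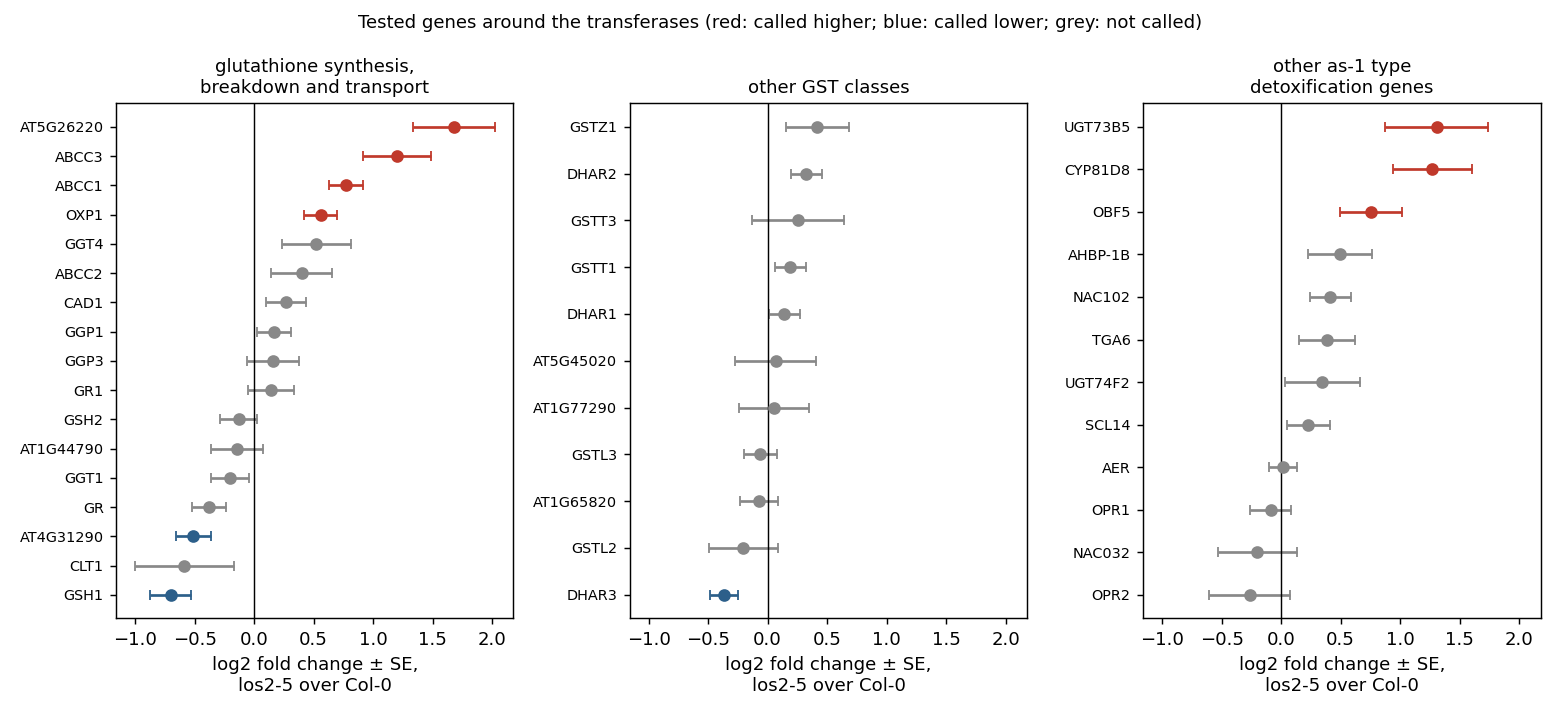
Log2 fold changes of los2-5 over Col-0 with bars of 1 standard error, for the tested genes of 3 lists: glutathione synthesis, breakdown and transport (17 genes), other transferase classes (11) and other as-1 type detoxification genes (12). Red marks genes that rose, blue genes that fell and grey genes not called by edgeR, with 4, 0 and 3 red and 2, 1 and 0 blue in the lists. Of the 3 red genes in the last list, UGT73B5 passed the filter through los2-5 alone.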

How the data were processed

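The 40 members and all comparison lists were chosen with earlier results of these data known. Libraries were made as 3' RNA-seq from TRIzol-extracted total RNA, per the labels' protocols. The authors deposited raw read counts per gene, used as they stand. STAR, edgeR and the build TAIR10 are named in the submitters' processing notes, while the sources used here state no versions, counting tool, annotation or strand setting. Library totals of 3563033 to 4598645 counts limit the precision of low genes.

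Genes passing filterByExpr (minimum count 10, minimum total 15) were scaled by TMM, the trimmed mean of M values, and tested with the robust quasi-likelihood F test of edgeR 4.0.16 in R 4.3.3, with genotype as sole term. Benjamini-Hochberg adjustment covered all 13952 genes kept, and calls were made at 0.05. Levels are CPM on TMM-scaled sizes, and folds are los2-5 over Col-0. A standard error is the absolute log2 fold change over the square root of F. Differences between consecutive tested genes were fitted with limma 3.58.1 (trend, robust) on log2 CPM (prior count 2). Exact 95% intervals and the floor of 3 counts cover counting error alone. The procedure was also run on simulated data, in which every gene had the same dispersion (spread between replicates beyond counting error) of 0.0155. In the deposited counts this spread differs between genes, so that run does not bear on single calls.

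Every member called, every member averaging at least 20 CPM and every near copy (protein identity of at least 90%) is given by library. Exceptions are named as chosen after their values were seen. Gene order, protein identity from translated coding sequences, and sequences come from RefSeq TAIR10.1, reached by locus tag. All 37051 identifiers matched. The count table holds no coordinates. Alternatives were other scalings, DESeq2 1.42.0, limma-voom, other filters, a replicate block and leaving out each library.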

Additional observations from a re-analysis of the deposited data

How the results depend on the processing

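In 13 alternatives 5 of the 9 calls, GSTF2, GSTF6, GSTF9, GSTU8 and GSTU13, held throughout. Of these, GSTU8 passed the filter through los2-5 alone, where it is high. Of 361 tested values of single genes and pairs 0 changed sign while called. The count of members higher, 8 by edgeR, was 5 with the DESeq2 Wald test, where GSTF7, GSTF8 and GSTU24 were lost, 6 with DESeq2 size factors, 10 with library size alone, 11 without a filter and 7 with a stricter one (2 CPM in 3 libraries). With single libraries left out it lay between 4 and 10, the number lower between 1 and 2 (2 without los2-5 replicate 2, through GSTF12), and the number of neighbour pairs called between 1 and 2 (1 without los2-5 replicate 2, los2-5 replicate 3 or Col-0 replicate 2). Over all genes, library size alone gave 2179 higher and 989 lower, beside 1384 higher and 1477 lower with TMM. Leaving out single libraries gave 831 to 1537 higher and 927 to 1606 lower, both lowest without Col-0 replicate 3 (831 and 927). The causes of these shifts were not tested, and such fits also hold fewer libraries. Deviations of los2-5 and Col-0 libraries with the same replicate number correlated at 0.05, -0.0007 and -0.05. For libraries with different numbers the correlations ran from -0.05 to 0.05. Deviations within 3 libraries are tied to each other, so these values cannot exclude that equal replicate numbers share a batch. A replicate block gave 8 members higher and 1 lower, 2 neighbour pairs, and 1517 higher and 1598 lower genes. Depth limits the 18 members with at most 58 counts, which the filter kept out of the test. Of these, GSTU9 and GSTU23 were called without a filter. GSTU23 was also called without los2-5 replicate 1, where it entered the test through los2-5 alone. The fit without a filter gave GSTF2 a standard error of 0.12, beside 0.21 in the main fit, and GSTF10 one of 0.121, beside 0.114. Count ratios without single libraries were added after seeing the data, and ran from 1.54 to 10.2 for GSTU10 and from 2.05 to 3.08 for GSTU23.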

Other observations

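A pair of further lists bears on processes in which these enzymes are known to act. Of 12 senescence genes 10 were tested, 3 rose and 1 fell by edgeR, with a median log2 fold change of -0.26, where 9.92% of all genes were called higher and 10.6% lower. The counts were 3 and 1 with DESeq2, and 4 and 2 with limma-voom. At an unadjusted p under 0.05, edgeR had 4 senescence genes higher and 3 lower. NYE1, which starts chlorophyll breakdown, stood at 28.1, 29.0 and 33.4 CPM in los2-5, against 17.4, 18.2 and 21.0 CPM in Col-0, and rose by 0.67 ± 0.17. SAG101, a lipase-like gene of immunity and senescence, rose by 1.05 ± 0.29, and WRKY53, a transcription factor of leaf senescence, rose by 1.25 ± 0.34. NYC1, a chlorophyll b reductase, fell with a value of -0.55 ± 0.15. SAG13, named after its values were seen, stood at 22.7, 19.1 and 51.9 CPM in los2-5, against 0.590, 1.47 and 8.59 CPM in Col-0, without overlap, and was not called (3.03 ± 0.89, adjusted p = 0.088 by edgeR). SEN1 and NAC6, also named after their values were seen, lay lower in los2-5 and were nearer the threshold, but were not called either. Their log2 fold changes were -0.89 ± 0.34 (adjusted p = 0.066, edgeR) and -1.07 ± 0.39 (adjusted p = 0.068, edgeR). SAG12, the classic late marker, held 0 counts in all 6 libraries. Of 14 anthocyanin genes around GSTF12, 10 were tested and 0 were called by edgeR, DESeq2 or limma-voom, with 0 higher and 3 lower at an unadjusted p under 0.05 and a median of -0.01.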
